A study of Mus musculus with 7 samples.

Results

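The genes of the ubiquitin-conjugating enzymes (E2s) were followed in nascent RNA of mouse GFI1+ IAHC, the cells of the intra-aortic hematopoietic clusters in which the first hematopoietic stem cells form. Members were all protein-coding genes whose symbol begins with Ube2 after the Ensembl identifiers were mapped to symbols, which gave 37 of the 55487 genes counted. Of these, 30 had at least 10 reads in at least 2 replicates of one condition and were among the 10311 genes tested, and 7 were not. The CD31+cKIT+GFI1+ cells were sorted from the aorta-gonad-mesonephros region (AGM) of Gfi1:tomato reporter embryos at E11.5 (strain given as CD1/Gf1+) and kept overnight in compE, a γ-secretase inhibitor that blocks Notch signaling, so every condition carries this first exposure. Sets of 300 to 400 cells were then washed and cultured for 4 h in methylcellulose with EU, a uridine analog that marks newly made RNA, and with DMSO (washout, 3 libraries), compE again (2 libraries) or Fc-JAG1, a recombinant Notch ligand (2 libraries). The number of a library marks its biological sample, an embryo by the labels and a pool of embryos by the methods: 1, 2 and 3 for the washout, 1 and 2 for compE, 1 and 3 for Fc-JAG1. The labels give compE as 10 mM and Fc-JAG1 as 4 mg/ml, while the methods give both in far smaller units (micromolar and micrograms), and which is right was not settled.

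Ubiquitin is passed along a chain of enzymes. An E1 activates it, an E2 takes it over as a thioester on a catalytic cysteine, and an E3 ligase brings the loaded E2 to the substrate. The E2 often decides which chain is built, and some E2s carry relatives of ubiquitin (SUMO, NEDD8, ISG15) instead. The family therefore covers housekeeping turnover, the exit from mitosis, DNA repair and the disposal of misfolded proteins, all of which dividing blood progenitors use.

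The part of an E2 that holds ubiquitin is short. The stretches printed here show that part for members on which the results turn, as 30 bases of coding sequence around the codon of the catalytic cysteine, in capitals. The codon was placed by a search of each translated coding sequence of GENCODE M21 (GRCm38) for the residues HPN followed by the next cysteine. This was found in 22 of 37 members, and in 20 of those 22 the cysteine lies 10 residues after the start of HPN.
Ube2d1: aacgggagtattTGTcttgacatcctgagg
Ube2d3: aatggcagcattTGTcttgatattctaaga
Ube2c: cagggcaacatcTGCctggacatcctcaag
Ube2s: aatggcgagatcTGTgtcaatgtgctcaag
Ube2a: gatggtagtataTGTctggatatacttcag
Ube2b: gatggtagcataTGTttagatatcctgcag
Ube2n: ttgggaagaataTGTttagatattttgaaa
Ube2m: gagggcaacgtcTGCctcaacatcctcaga
The near relatives Ube2d1 and Ube2d3 differed at 7 of the 30 bases, and Ube2a and Ube2b at 5, so reads of 50 bases can tell them apart here. Ube2v1 and Ube2v2, which lack the catalytic cysteine and assist Ube2n, gave no match, and neither did Ube2q1, Ube2q2, Ube2w, Ube2j1 or Ube2e3. That says only that these letters are not in the sequence searched.

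Reads were counted over whole genes, and what lies over a gene decided whether it could be counted. Of 454 protein-coding genes that lie wholly within other genes of the same strand, 452 were at 0 in every library. Of 703 that lie wholly within genes of the opposite strand only, 702 were at 0. Among 11898 protein-coding genes that share no base with another gene, 52.9% reached 10 reads in at least 1 library. A gene lying wholly under another, on either strand, was thus at 0 in nearly every case.

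For the E2 genes, this bears on 6 of 37 members, those with over 10% of their span under another gene. Ube2v1 (chromosome 2, 167607638 to 167632095, minus strand, GRCm38) lies to 99.98% within other genes, mostly the same-strand readthrough gene Gm20431, and was at 0 in all 7 libraries. Gm20431 itself had 0, 41 and 1951 reads in washout 1, 2 and 3, 0 and 63 in the compE libraries (1 and 2), then 570 and 0 in those of Fc-JAG1 (1 and 3). Ube2d2b (chromosome 5, 107830099 to 107831776) lies wholly within Evi5 on the other strand and was also at 0. A count of 0 for these genes is therefore no measure of their transcription.

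The other 4 were counted over what is left of them. Ube2g2 kept 18.8% of its span, since Gm49325 covers the rest, and still reached 7431 reads. Ube2d2a kept 74.6% of its span, Ube2c 81.4% and Ube2l3 82.8%. Of exon bases, Ube2c kept 37.2% and Ube2l3 11.8%, next to Tnnc2 and Ydjc on the opposite strand. A further 13 members had at most 10% covered, and 18 had no base under another gene. The same holds for a partner of the family: the modifier gene Sumo3, with 0.817% of its span free, was at 0 in all libraries.

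**Figure D1:**
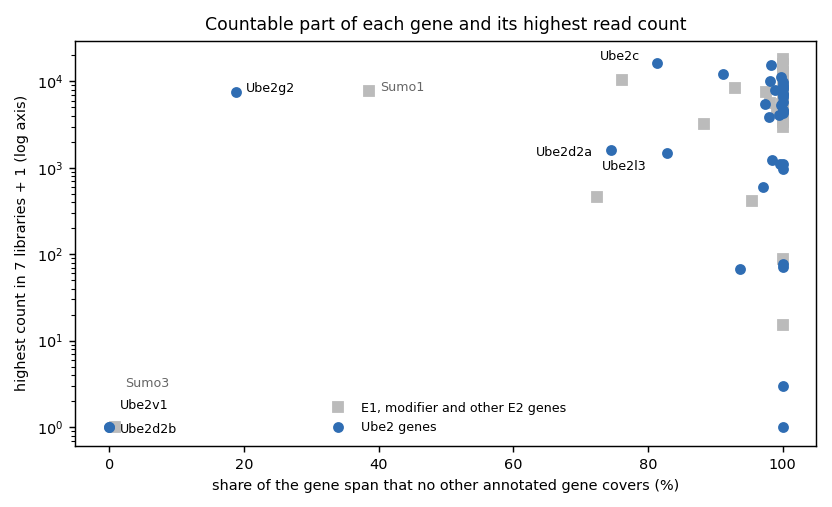
Highest read count of a gene in the 7 libraries, plus 1 on a log axis, against the share of its span that no other annotated gene covers, in percent. Blue circles are 36 Ube2 genes and grey squares the genes of E1s, modifiers and other E2s. Ube2v1, Ube2d2b and Sumo3 sit together at the lower left with no reads, while Ube2g2, with 18.8% of its span free, reached 7431.

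Reads that map to several places were dropped by the authors, which could also lower a member with close copies. Of the 50-base windows of each member's annotated transcripts, 10 members shared none with the transcripts of another gene, and 29 of 37 shared under 10%. The highest shares were 63.5% for Ube2v1 (with Gm20431), 44.2% for Ube2h (with the noncoding Gm26526), 32.2% for Ube2l3 (with Ydjc) and 19.6% for Ube2e1 (with Nkiras1). Ube2q2 shared 16.4% with the processed pseudogene Gm4895 and Ube2v2 5.41% with Gm6565. Ube2d1 and Ube2q1 shared none. Introns were not searched.

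Total counts ran from 21652927 to 33974693 per library. The libraries were far from even in how many genes they held: 3 (washout 2, compE 2 and Fc-JAG1 1) had 11600 to 12351 genes with at least 10 reads, and 4 (washout 1 and 3, compE 1 and Fc-JAG1 3) had 6265 to 8096. With no molecular identifiers, a high count can come from few captured molecules, and fewer cells cannot be told apart from less RNA per cell. The labels' cell type held up in part: Kit, Runx1 and Myb had at least 1417 reads in every library. Gfi1 had 0, 12, 2477, 0, 0, 2504 and 0 reads in libraries ordered as washout, compE and Fc-JAG1. Pecam1 (CD31) had 18 in washout 1 and 11 in Fc-JAG1 3. Ptprc had 3 reads in washout 3 and 2183 to 19875 elsewhere, and Cdh5 had 139 in washout 1 and at most 3 elsewhere. Of the markers of other cells, macrophage genes summed to 75.9 to 413 CPM per library and erythroid genes to 13.8 to 81.4 CPM, while mesenchyme, neural and epithelial genes stayed at or under 15.7 CPM each. Their part in the results was not tested.

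E2 genes were detected in more libraries than the tested genes as a whole. Members with at least 10 reads numbered 23, 31 and 26 of 37 in washout 1, 2 and 3, 23 and 31 in the compE libraries (1 and 2), then 30 and 25 in those of Fc-JAG1 (1 and 3). Of the 30 tested, 14 (46.7%) had at least 10 reads in all 7 libraries, against 29.4% of all genes tested, and 7 (23.3%) had a 0 in some library, against 40.4%. The coefficient of variation of scaled counts over the 7 libraries had a median of 92.7% over the tested members and 108% over all genes tested. These shares are descriptions of the list. Even so, 27 of 210 values of the tested members were under 10 reads, and 26 of those 27 lay in the 4 libraries with few genes. Those libraries were set apart by how few genes reached 10 reads, so this holds for genes at large. Of all genes tested, 56.2% to 71.1% had at least 10 reads in each of these 4, and 90.5% to 94.2% in each of the other 3.

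**Figure D2:**
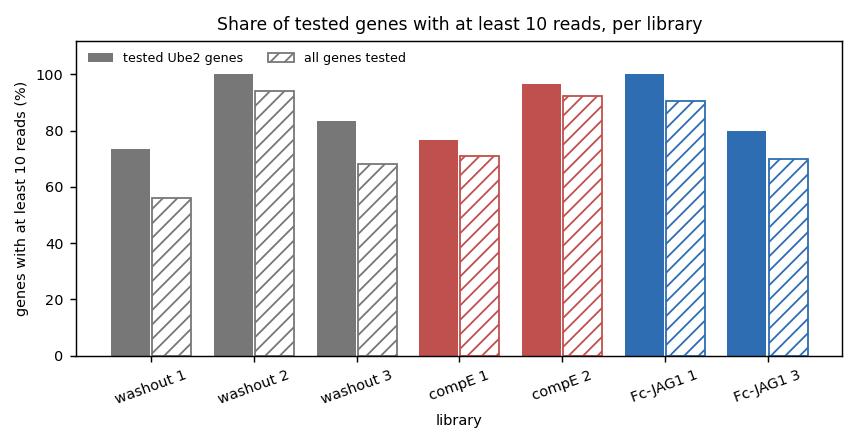
Share of genes with at least 10 reads in each library, in percent, for the 30 tested Ube2 genes (filled bars) and all 10311 genes tested (hatched bars), colored by condition (grey washout, red compE, blue Fc-JAG1). The filled bar is the taller in every library, and both fall in washout 1 and 3, compE 1 and Fc-JAG1 3.

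Ube2c had the highest mean level for its length. Its product starts ubiquitin chains on the substrates of the anaphase-promoting complex in mitosis. Per kilobase of exons, it had a mean of 124 CPM over the 7 libraries (23.0 to 208). The next were Ube2g2 (mean 55.5 CPM per kilobase, 0 to 93.5), Ube2r2 (43.7, 14.4 to 98.2), Ube2b (41.7, 2.80 to 77.3) and Ube2g1 (34.2, 1.07 to 93.3). The ranges of all 5 overlap, and Ube2c was first in 4 libraries but not in washout 1, where Ube2r2 led (98.2 CPM per kilobase against 23.0), washout 3, where Ube2g2 led (80.6 against 59.0), or Fc-JAG1 3, where Ube2g1 led (93.3 against 86.6), so the order is loose. Nascent RNA holds introns, and when the level was taken per kilobase of the gene's whole span, Ube2c kept its place with a mean of 36.1 CPM per kilobase, while Ube2m (21.9) and Ube2q1 (13.3) came next. Only 5 of the first 10 genes were the same by both lengths. The span of Ube2g2 is mostly covered by another gene. Per kilobase of bases free of other genes, Ube2c had a mean of 44.3 CPM, Ube2g2 30.3 and Ube2m 21.9.

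**Figure D3:**
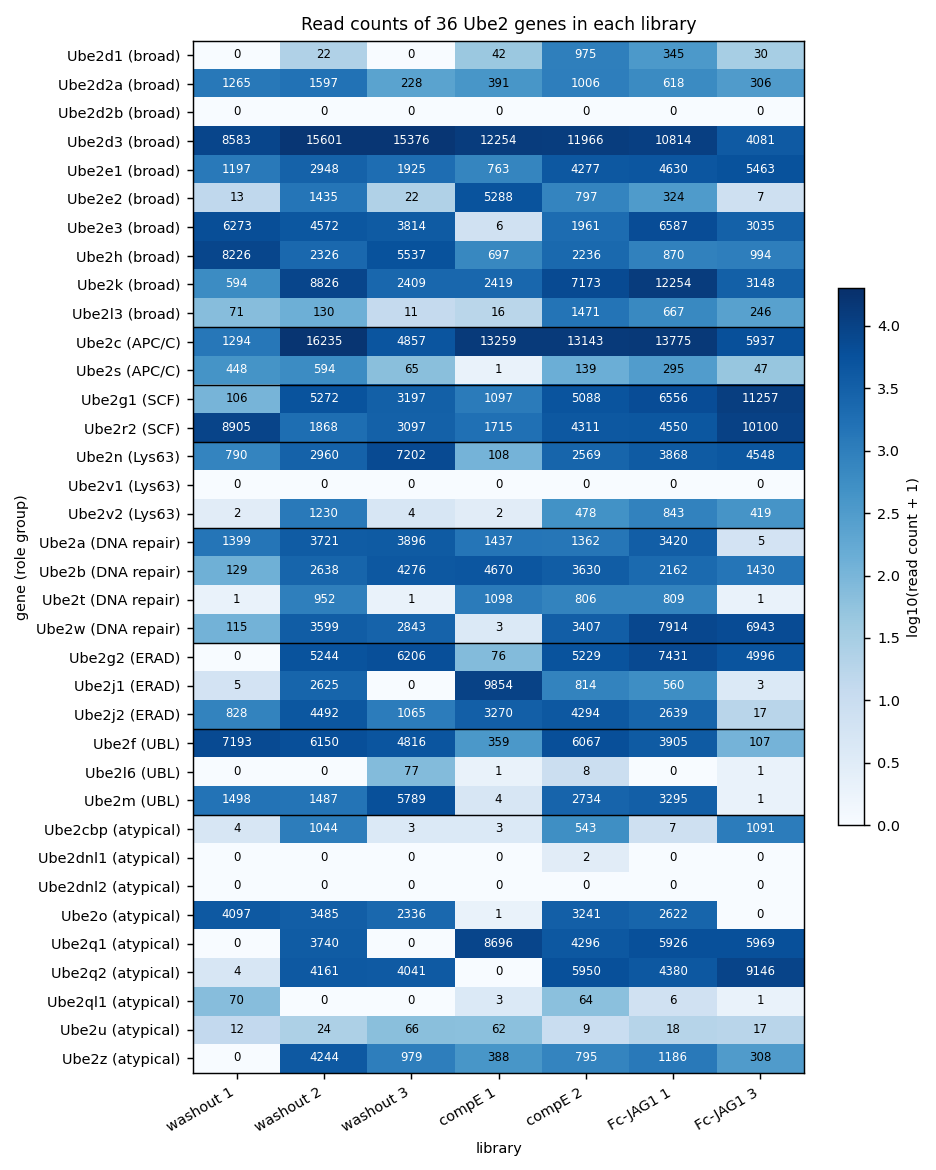
Read counts of 36 Ube2 genes (rows, by role group) in the 7 libraries (columns), with the count printed in each cell and color giving log10 of the count plus 1. Ube2d3 and Ube2c are dark throughout, and pale cells of otherwise high genes gather in the columns of washout 1 and 3, compE 1 and Fc-JAG1 3.

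Among the broadly acting E2s, which serve many ligases, Ube2d3 was the steadiest member. It had 8583, 15601 and 15376 reads in washout 1, 2 and 3, 12254 and 11966 in the compE libraries (1 and 2), then 10814 and 4081 in those of Fc-JAG1 (1 and 3). After TMM scaling it stood at 493 ± 58.0 CPM in the washout (SD, n = 3), 397 ± 124 with compE (SD, n = 2) and 235 ± 87.7 with Fc-JAG1 (SD, n = 2). Both Fc-JAG1 libraries lay below all others, at 297 and 173 CPM, and the difference from the washout missed the threshold (log2 fold change −1.24 ± 1.15 (SE) by edgeR, adjusted p = 0.956, and −1.61 ± 0.63 by DESeq2, adjusted p = 0.0512).

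Its close relative Ube2d1 was far lower, with 0, 22 and 0 reads in the washout, 42 and 975 with compE and 345 and 30 with Fc-JAG1. Ube2d2a, the other UBE2D gene counted, had 228 to 1597 reads in every library. Of the UBE2E genes, Ube2e1 had 763 to 5463 reads in every library, while Ube2e3 was at 6 in compE 1 and Ube2e2 ranged from 7 in Fc-JAG1 3 to 5288 in compE 1. Ube2h, Ube2k and Ube2l3, which works with HECT and RBR ligases, were at 10 reads or more in all 7 libraries, Ube2h at 697 to 8226, Ube2k at 594 to 12254 and Ube2l3 at 11 to 1471.

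The E2 pair of the anaphase-promoting complex was unequal. Ube2c, which begins the chain, had 1294, 16235 and 4857 reads in the washout, 13259 and 13143 with compE and 13775 and 5937 with Fc-JAG1. Ube2s, which lengthens it, had 448, 594 and 65 reads in the washout, 1 and 139 with compE and 295 and 47 with Fc-JAG1. The means were 124 CPM per kilobase of exons for Ube2c and 1.60 for Ube2s. Ube2c was at 1294 reads or more in every library, including those in which other members were under 10 reads. The E2s that extend chains with cullin ligases, Ube2g1 and Ube2r2, were also present throughout, at 106 to 11257 and 1715 to 10100 reads.

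For K63-linked chains, used in signaling and DNA repair, the catalytic Ube2n was at 108 to 7202 reads in every library. Its partner Ube2v2 was at 2, 1230 and 4 reads in the washout, 2 and 478 with compE and 843 and 419 with Fc-JAG1. The other partner, Ube2v1, could not be counted. Ube2v2 thus had fewer than 10 reads in 3 libraries, all of them among the 4 with few genes.

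Of the E2s of DNA repair and histone ubiquitination, Ube2b was the only one with at least 10 reads in all libraries (129 to 4670). Ube2a, its twin among the mammalian counterparts of yeast Rad6, had 1362 to 3896 reads in 6 libraries and 5 in Fc-JAG1 3. Ube2t, the E2 of the Fanconi anemia pathway, had 806 to 1098 reads in 4 libraries and 1 in each of the other 3. Ube2w, which ubiquitinates the N-terminus of proteins, had 115, 3599 and 2843 reads in the washout, 3 and 3407 with compE and 7914 and 6943 with Fc-JAG1.

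The E2s of ER-associated degradation differed in the same libraries. Ube2j2 was seen throughout (17 to 4492 reads). Ube2g2 had 0 reads in washout 1, 76 in compE 1 and 4996 to 7431 in the other 5. Ube2j1, an E2 anchored in the ER membrane, had 5, 2625 and 0 reads in the washout, 9854 and 814 with compE and 560 and 3 with Fc-JAG1. It had the highest coefficient of variation of the 30 tested members, 200.1%.

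Of the E2s for relatives of ubiquitin, Ube2f, one of the pair for NEDD8, had 107 to 7193 reads in every library. The other, Ube2m, had 1487 to 5789 reads in 5 libraries but 4 in compE 1 and 1 in Fc-JAG1 3. Ube2l6, the E2 for ISG15 and itself an interferon target in other cells, had 77 reads in washout 3 and at most 8 elsewhere, and Isg15 had 88 in washout 2 and 0 elsewhere.

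Several of the large and atypical members had many reads in some libraries and under 10 in others. Ube2q1 had 0, 3740 and 0 reads in the washout, 8696 and 4296 with compE and 5926 and 5969 with Fc-JAG1. Ube2q2 had 4, 4161 and 4041 reads in the washout, 0 and 5950 with compE and 4380 and 9146 with Fc-JAG1. Ube2o, which joins E2 and E3 activity in one protein and clears ribosomal proteins from maturing red cells, had 1 in compE 1, 0 in Fc-JAG1 3 and 2336 to 4097 elsewhere. Ube2z, which receives ubiquitin from Uba6, had 0 in washout 1 and 308 to 4244 elsewhere, and Ube2u had 9 to 66. Untested were Ube2cbp, now classed as a ligase, with 543 to 1091 reads in 3 libraries and at most 7 in the other 4, Ube2ql1 with at most 70, and Ube2dnl1 and Ube2dnl2 with at most 2.

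The comparison of Fc-JAG1 with the washout asks what an added Notch ligand did to newly made RNA. By DESeq2, which was the authors' test, 4 of 30 tested members were called higher and 0 lower: Ube2q1, Ube2d1, Ube2v2 and Ube2q2. Over all genes tested, 20.4% were called, 15.7% higher and 4.74% lower, so 13.3% of members higher is near the background. The number of calls moved with single washout libraries. DESeq2 called 4 members higher and 1 lower without washout 1, and 3 higher and 1 lower without washout 2. Without washout 3, Fc-JAG1 3 is the only library of its biological sample, and the fit's term for that sample absorbs it. That fit thus rests on Fc-JAG1 1, and its calls are not given. Calls in fits without an Fc-JAG1 library are not given, since these leave 1 library in that condition. Nor are those without a compE library, which keep both compared groups whole but leave 1 library in compE. Without an Fc-JAG1 library, a gene low in the washout also cannot meet the authors' rule on counts, so such a fit cannot show a loss of higher calls. By edgeR, 0 members and 0.0% of all genes passed the threshold, and at an unadjusted p under 0.05 there was 1 member, Ube2d1, beside 526 genes (5.1%). The calls are therefore those of DESeq2 alone.

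Ube2q1 (chromosome 3, 89773616 to 89784000, plus strand) had 0 reads in 2 washout libraries and 5926 and 5969 in those of Fc-JAG1. It stood at 34.6 ± 59.8 TMM-scaled CPM in the 3 washout libraries (mean ± SD) and 208 ± 63.8 in the 2 of Fc-JAG1, with no overlap. DESeq2 put its log2 fold change at 13.26 ± 2.73 (SE, adjusted p = 6.85e-05), while edgeR gave 6.33 ± 3.50 (adjusted p = 0.828). The size of such a fit is loose, since 2 values are 0, and between the 2 libraries with many genes the levels were 163 CPM in Fc-JAG1 1 and 104 in washout 2.

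Ube2d1 (chromosome 10, 71254980 to 71285262, minus strand) was at 0.20 ± 0.35 CPM in the 3 washout libraries (mean ± SD) and 5.37 ± 5.80 in the 2 of Fc-JAG1. The ranges did not overlap, but the lower Fc-JAG1 library held 30 reads and the highest washout library 22. DESeq2 put its log2 fold change at 8.01 ± 1.92 (SE, adjusted p = 0.000666), while edgeR gave 7.97 ± 3.71 (adjusted p = 0.828).

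Ube2v2 (chromosome 16, 15552077 to 15595773, minus strand) was at 11.4 ± 19.6 CPM in the 3 washout libraries (mean ± SD) and 20.4 ± 3.81 in the 2 of Fc-JAG1. Washout 2, at 34.1 CPM, was above both Fc-JAG1 libraries, and the other washout libraries were near 0. DESeq2 put its log2 fold change at 6.82 ± 1.55 (SE, adjusted p = 0.000304), and −0.65 when washout 1 and 3 and the replicate block were left out. Ube2q2 (chromosome 9, 55148854 to 55207529, plus strand) was at 86.5 ± 76.1 CPM in the 3 washout libraries (mean ± SD) and 254 ± 189 in the 2 of Fc-JAG1, a difference that DESeq2 put at 6.96 ± 2.04 on the log2 scale (adjusted p = 0.00632). Its lower Fc-JAG1 library, at 120 CPM, was below washout 3, at 144.

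With 1 library left out at a time, each of these 4 genes missed the threshold in some fits. An omitted Fc-JAG1 library leaves 1 sample there, whose spread is then assumed to be that of the other groups. A gene that is low in the washout can then no longer meet the rule of 10 reads in 2 replicates. These fits are therefore given by fold change only. Fits without a compE library leave 1 sample in compE, and their p is not given either. Without washout 1 and without washout 2, the adjusted p by DESeq2 stayed under 0.05 for Ube2q1, Ube2d1 and Ube2v2. It was 0.0152 and 0.000183, 0.0232 and 0.0282, and 0.0172 and 0.0185, in that order. For Ube2q2 it rose above 0.05 in both fits (0.169 and 0.187). Without washout 3, the adjusted p rose above 0.05 for Ube2q1, Ube2d1 and Ube2v2 and stayed under it for Ube2q2. That fit rests on Fc-JAG1 1 and cannot test a call. The fits without washout 2 and without compE 2 nearly coincide, with a log2 fold change of 14.21 for Ube2q1 in both. Without washout 3 or either Fc-JAG1 library, the log2 fold changes of Ube2d1 and Ube2v2 hardly moved, at 7.57 to 8.44 and 6.68 to 6.93. That of Ube2q2 ranged from 1.40 to 9.18 in these fits. That of Ube2q1 came to 6.42 without washout 3 and 6.58 without Fc-JAG1 3. Without Fc-JAG1 1 it came to 30, which is no usable size, since washout 3, of the same embryo number as Fc-JAG1 3, had 0 reads. With no replicate block, DESeq2 called 0 of the 30 members in each of the comparisons, with log2 fold changes here of 2.80 for Ube2q1, 4.71 for Ube2d1 (adjusted p = 0.310), 0.99 for Ube2v2 and 1.61 for Ube2q2 (adjusted p = 0.951), and no adjusted p given for Ube2q1 and Ube2v2.

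On the lower side, the smallest p by edgeR belonged to Ube2h, Ube2f and Ube2u. Ube2h was at 246 ± 211 CPM in the 3 washout libraries (mean ± SD) and 33.0 ± 12.9 in the 2 of Fc-JAG1, with a log2 fold change of −3.01 ± 2.30 by edgeR (adjusted p = 0.896). Ube2f was at 253 ± 142 and 55.9 ± 72.6 CPM, or −2.57 ± 2.20 on the log2 scale (adjusted p = 0.936 by edgeR). Ube2u stayed at 2.35 CPM or less in the libraries of either condition, and edgeR put it at −1.59 on the log2 scale (adjusted p = 0.939).

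By order alone, 6 members had both Fc-JAG1 libraries above all 3 of the washout (Ube2d1, Ube2q1, Ube2w, Ube2l3, Ube2g1 and Ube2e1), where 10.5% of all genes did, and 4 had both below (Ube2d3, Ube2f, Ube2h and Ube2o), where 6.85% did. Within the pairs of embryo numbers 1 and 3, 7 members were at least 2-fold higher with Fc-JAG1 in both pairs (16.5% of all genes), 3 were at least 2-fold lower in both (6.58%) and 4 moved 2-fold in opposite ways (23.5%). The median log2 fold change of the 30 members was 0.10 by edgeR, beside 0.44 over all genes. The latter moved with the scaling, to 0.07 with the size factors of DESeq2 and 0.71 with total counts, and that of the members moved to −0.22 and 0.32. Relative to all genes, the members lay lower under these 3 scalings, but higher in all 7 edgeR fits with 1 library left out. Examples are 0.58 beside 0.16 without washout 1 and 1.00 beside 0.42 without washout 2. The fits without washout 2 and compE 2 nearly coincide, as do those without washout 3 and Fc-JAG1 3, so these are not 7 separate checks.

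**Figure D4:**
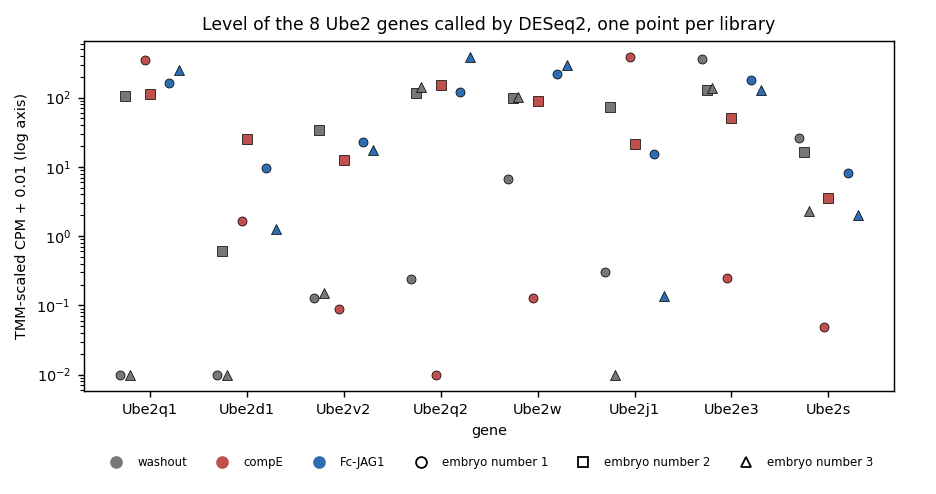
TMM-scaled CPM plus 0.01, on a log axis, of the 8 Ube2 genes called by DESeq2 in any comparison, with one point per library colored by condition (grey washout, red compE, blue Fc-JAG1) and shaped by embryo number. Points under 1 CPM are circles (embryo 1) and triangles (embryo 3), except the washout 2 square of Ube2d1 at 0.61 CPM.

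The comparison of compE with the washout asks what continued block of Notch did. By DESeq2, 5 of 30 members were called, 3 higher (Ube2q1, Ube2d1 and Ube2j1) and 2 lower (Ube2e3 and Ube2s). With 1 washout library left out, it called 0 members without washout 1 or 3. Without washout 2, compE 2 is the only library of its biological sample, and the fit's term for that sample absorbs it. That fit thus rests on compE 1 and is nearly the fit without compE 2. The log2 fold change of Ube2e3 was −10.58 in one and −10.56 in the other, and calls without washout 2 are not given. Calls in fits without a compE library are not given, since a gene low in the washout cannot then meet the rule of 10 reads in 2 replicates. Over all genes tested, 9.33% were called, 5.66% higher and 3.67% lower, and of the members 10.0% and 6.67%. By edgeR, 0 members and 0.0% of all genes were called, and at an unadjusted p under 0.05 there were 0 members and 271 genes (2.63%). The washout libraries are those of the comparison with Fc-JAG1, so a low washout value raises a gene in both, as for Ube2q1 and Ube2d1. Of the cell markers, DESeq2 called Gfi1, on which the cells were sorted, and Mertk, a macrophage gene, lower with compE (adjusted p = 3.33e-06 and 0.0443). Gfi1 had 0, 12 and 2477 reads in the washout and 0 in both compE libraries. Mertk had 10, 54 and 1 reads in the washout and 3 and 2 with compE. By edgeR 0 markers of either list were called, and their part in the E2 results was not tested.

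Ube2q1 was at 227 ± 165 CPM with compE (SD, n = 2), against 34.6 ± 59.8 in the washout (SD, n = 3). DESeq2 put the log2 difference at 12.56 ± 2.58 (SE, adjusted p = 0.000257), while edgeR gave 5.53 ± 3.24 (adjusted p = 1.00). The pair of the second embryo number showed next to nothing, 111 CPM in compE 2 and 104 in washout 2, and without compE 1 the log2 fold change by DESeq2 was 0.05. Ube2d1 was at 13.4 ± 16.6 CPM with compE and 0.20 ± 0.35 in the washout (SD, n = 2 and 3), a difference that DESeq2 put at 5.77 ± 1.72 on the log2 scale (adjusted p = 0.0151). Ube2j1 (chromosome 4, 33031416 to 33052363, plus strand) was at 205 ± 261 CPM with compE and 24.3 ± 41.9 in the washout (SD, n = 2 and 3), a difference that DESeq2 put at 6.96 ± 2.39 on the log2 scale (adjusted p = 0.0414). Its high mean comes from compE 1 alone, and without that library the log2 fold change was −1.84 by DESeq2.

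Ube2e3 (chromosome 2, 78868124 to 78921293, plus strand) was at 209 ± 135 CPM in the 3 washout libraries (mean ± SD) and 25.4 ± 35.6 in the 2 of compE. Both compE libraries, at 0.24 and 50.6 CPM, lay below all other libraries. DESeq2 put its log2 fold change at −6.07 ± 1.77 (SE, adjusted p = 0.0132), while edgeR gave −4.32 ± 3.09 (adjusted p = 1.00). Ube2s (chromosome 7, 4794546 to 4812590, minus strand) was at 14.9 ± 11.9 CPM in the washout and 1.81 ± 2.51 with compE (SD, n = 3 and 2), a difference that DESeq2 put at −5.64 ± 1.87 on the log2 scale (adjusted p = 0.0339). Its ranges overlapped, with 3.59 CPM in compE 2 and 2.32 in washout 3. In the pair with many genes, compE 2 and washout 2, both genes were also lower with compE, at 50.6 against 127 CPM for Ube2e3 and 3.59 against 16.5 for Ube2s.

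In the DESeq2 fits without washout 1 or without washout 3, the adjusted p of each of these genes rose above 0.05. The fits without washout 2 and without compE 2 nearly coincide and rest on compE 1, so they are given by fold change only. On the log2 scale these were 15.27 and 15.29 for Ube2q1, and −9.27 and −9.25 for Ube2s. With no replicate block, the log2 fold change by DESeq2 was 3.01 for Ube2q1, 5.93 for Ube2d1 (adjusted p = 0.116), 3.45 for Ube2j1, −3.67 for Ube2e3 (adjusted p = 0.236) and −3.61 for Ube2s (adjusted p = 0.533), with no adjusted p given for Ube2q1 and Ube2j1.

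By order alone, 2 members were higher in both compE libraries than in all 3 of the washout (Ube2d1 and Ube2q1), where 10.9% of all genes were, and 4 were lower (Ube2e3, Ube2f, Ube2h and Ube2a), where 6.79% were. In the pairs of embryo numbers 1 and 2, 1 member was at least 2-fold higher with compE in both (7.45% of all genes), 2 were at least 2-fold lower (3.71%) and 4 moved in opposite ways (9.54%). Ube2f had a log2 fold change of −2.75 ± 2.85 by edgeR. Ube2c, next on the higher side by p, had 1.00 ± 1.43, with 233 ± 194 CPM in the 3 washout libraries (mean ± SD) and 432 ± 131 in the 2 of compE, and its sign turned under 4 alternatives. The median of the 30 members was −0.72 by edgeR, beside −0.10 over all genes, with 19 members below 0 and 11 above. With the size factors of DESeq2 the medians were −0.84 and −0.22.

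**Figure D5:**
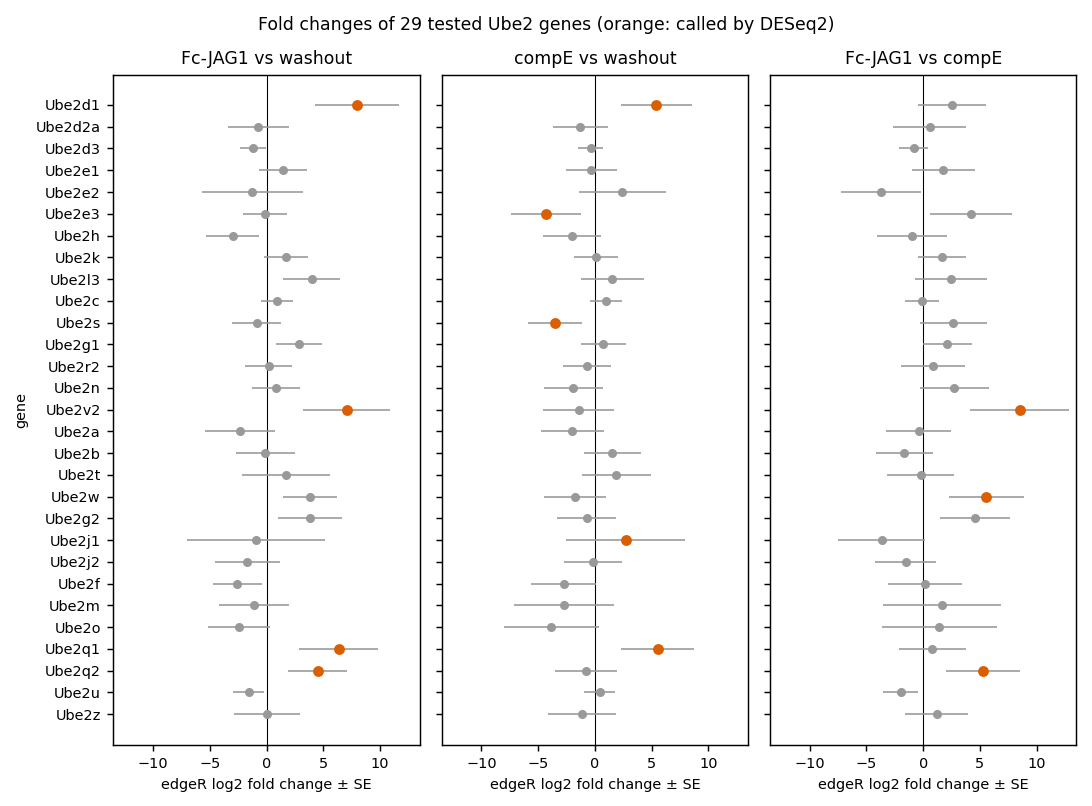
Log2 fold change by edgeR with its standard error (bars) for 29 tested Ube2 genes (rows) in the 3 comparisons (panels), with the members called by DESeq2 in orange. Most bars cross 0, and the orange points of Ube2d1 and Ube2q1 lie to the right in both comparisons with the washout.

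Between Fc-JAG1 and compE, whose libraries share only the first embryo number, DESeq2 called 3 of 30 members higher with Fc-JAG1 (Ube2v2, Ube2q2 and Ube2w) and 0 lower, beside 9.18% and 2.21% of all genes (11.4% in both directions). By edgeR 0 members and 0.0% of all genes were called, with 0 members and 292 genes (2.83%) at an unadjusted p under 0.05. Ube2w (chromosome 1, 16540790 to 16619489, minus strand) was at 256 ± 54.3 CPM with Fc-JAG1 (SD, n = 2) and 44.0 ± 62.1 with compE (SD, n = 2). Both Fc-JAG1 libraries, at 217 and 294 CPM, lay above every other library, of which the highest held 101 CPM. DESeq2 put its log2 fold change at 7.19 ± 2.12 (SE, adjusted p = 0.0112), while edgeR gave 5.57 ± 3.30 (adjusted p = 1.00), and against the washout it was 3.85 ± 2.38 by edgeR (adjusted p = 0.842).

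Ube2v2 was at 20.4 ± 3.81 CPM with Fc-JAG1 and 6.21 ± 8.67 with compE (SD, n = 2 each), a difference that DESeq2 put at 8.07 ± 1.89 on the log2 scale (adjusted p = 0.00102). Ube2q2 was at 254 ± 189 CPM with Fc-JAG1 and 76.8 ± 109 with compE (SD, n = 2 each), a difference that DESeq2 put at 9.56 ± 2.53 on the log2 scale (adjusted p = 0.00388), though Fc-JAG1 1, at 120 CPM, was below compE 2, at 154. Without compE 1, the log2 fold changes by DESeq2 came to 3.15 for Ube2w, 4.44 for Ube2q2 and 8.45 for Ube2v2. Without Fc-JAG1 1 they were 4.64, 3.53 and 8.19, in that order. Each of these fits leaves 1 library in a condition, so none tests a call. With no replicate block the log2 fold changes by DESeq2 were 2.83 for Ube2w (adjusted p = 0.960), 2.07 for Ube2q2 (adjusted p = 1.00) and 1.96 for Ube2v2, which had no adjusted p.

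On the lower side stood Ube2u, Ube2e2 and Ube2j1, at −2.00 ± 1.57, −3.70 ± 3.54 and −3.67 ± 3.85 on the log2 scale by edgeR. For each of these, the fit without compE 1 turned the sign. The groups did not overlap for 8 members that were higher (Ube2e1, Ube2e3, Ube2g1, Ube2g2, Ube2n, Ube2r2, Ube2v2 and Ube2w), where 15.0% of all genes were, and for 5 that were lower (Ube2b, Ube2d3, Ube2e2, Ube2j1 and Ube2j2), where 15.4% were. The median of the members was 1.15 by edgeR, beside 0.43 over all genes, and both fell to about 0 with no replicate block, at −0.03 and 0.00.

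By role, the calls fell as follows. Over all genes against the washout, DESeq2 called 15.7% higher and 4.74% lower with Fc-JAG1. With compE it called 5.66% higher and 3.67% lower. Groups of 2 to 9 tested members are too small to be told apart from these shares. Of 9 tested broadly acting members, DESeq2 called 1 higher with Fc-JAG1 and 1 higher and 1 lower with compE, both against the washout. Of 5 tested large or atypical members it called 2 higher with Fc-JAG1 and 1 with compE. Of the pairs of the anaphase-promoting complex and of K63-linked chains, it called 1 lower with compE and 1 higher with Fc-JAG1, in that order. The 3 members for relatives of ubiquitin, the 2 of cullin ligases and the 4 of DNA repair had 0 calls against the washout, and the 3 of ER-associated degradation had 1, higher with compE.

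The enzymes upstream and the proteins carried were read from lists written from general knowledge. Of 8 tested E1 genes and E1 partners, DESeq2 called 2 higher with Fc-JAG1 than in the washout (15.7% of all genes), 0 with compE, and 1 higher with Fc-JAG1 than with compE. By edgeR 0 of the 8 were called, and their median log2 fold change with Fc-JAG1 against the washout was 1.13, beside 0.44 over all genes. Uba1, the main E1 of ubiquitin, had 3984 to 12906 reads in every library and a log2 fold change with Fc-JAG1 of 0.65 ± 1.39 by edgeR. Uba2, a subunit of the SUMO E1, had 15503, 10023 and 11 reads in the washout and 15925 and 8007 with Fc-JAG1 (log2 fold change 3.96 by DESeq2, adjusted p = 0.0487), with washout 3 as the lone low library of the 5. Uba7, the E1 for ISG15, had 1, 819 and 0 reads in the washout, 0 and 72 with compE and 906 and 3198 with Fc-JAG1 (log2 fold change 10.86 against the washout, adjusted p = 0.000189 by DESeq2, and 13.88 against compE, adjusted p = 0.000245). Scaled to the total count, Fc-JAG1 1 (27.7 CPM) was level with washout 2 (27.2 CPM) and Fc-JAG1 3 was higher (121 CPM), while its E2 Ube2l6 and its modifier Isg15 were nearly unread.

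Of the 9 tested genes of ubiquitin and its relatives and the 7 tested E2 genes with other names, 0 were called by DESeq2 or edgeR in any comparison. Ubb had 2416 to 7292 reads and Rps27a 3076 to 8395 in every library. Cdc34, an E2 of cullin ligases, had 1924 to 12278 in every library.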

How the data were processed

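Reads were trimmed with cutadapt 4.2, aligned to GRCm38 with STAR 2.7.8 and assigned with featureCounts (Subread 2.0.1) by the authors, who kept uniquely mapped reads and deposited raw counts of 55487 genes. Their transformed values were not used here. Genes were kept where 2 or more replicates of a condition held 10 counts or more, and these 10311, the same as in the deposited filtered counts, were fitted over all 7 libraries in R 4.3.3 with edgeR 4.0.16 (TMM, quasi-likelihood with bias-adjusted deviances, terms for biological sample and condition), with p-values adjusted by Benjamini and Hochberg over all genes and a threshold of 0.05. Standard errors by edgeR were derived from the log2 fold change and its F. DESeq2 1.42.0 (Wald test, the authors' model, with their rule of at least 10 counts in 2 replicates of either condition) and limma 3.58.1 (voom) were alternatives, beside other scalings, no filter, no replicate block and each library left out. Added on seeing the data were the earlier quasi-likelihood method, fits without washout 1 and 3 and lengths free of other genes. The code was tested on simulated data.

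Symbols and positions came from GENCODE M21 (55227 genes placed), which is not the authors' annotation, Ensembl 102. The members and lists were chosen with earlier results of these data known. Genes named are those called by either test, the 3 with the smallest p by edgeR on each side, those with at least 10 reads in all libraries and, chosen after their values were seen, others in the account of roles, of coverage by other genes and of order. Pairing by embryo number follows the labels and the methods. Deviations of same-numbered libraries from the mean of their condition correlated at −0.0804 to 0.0871 over 5 pairs, and those of other numbers at −0.0871 to 0.083. With 2 libraries in compE and in Fc-JAG1, the 2 deviations mirror each other, so these values cannot decide whether the pairing holds. Libraries of a condition come from separate samples by the labels. Counts carry no molecular identifiers. Values of 1 member and of some partner genes are not reported here and not drawn, though they stay in the counts and medians. Figures were drawn with matplotlib 3.10.9.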

Additional observations from a re-analysis of the deposited data

How the results depend on the processing

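Under edgeR, 0 Ube2 genes were called in any comparison with each scaling, without the filter, without the block and with each library left out, and 0 under limma voom, which was run once per comparison. By DESeq2 with its rule on counts, 4 were called with Fc-JAG1 and 5 with compE against the washout, and 3 between Fc-JAG1 and compE. Leaving out 1 washout library gave 2 to 5, 0 to 6 and 3, and dropping the replicate block gave 0 in each. Fits without a compE or Fc-JAG1 library leave 1 there, so in comparisons with that condition a gene low in the other group cannot meet that rule. Their calls are not given. The median log2 fold change of the members by either test with 1 library left out was 0.07 to 1.08 (1.00 to 1.08 by edgeR without washout 2 or 3 or either compE library, and 1.05 without compE 1), −1.36 to −0.14 and 0.24 to 1.76, in that order. With no replicate block the median between Fc-JAG1 and compE was −0.0346 by edgeR and −0.16 by DESeq2, and when washout 1 and 3 were also left out, −0.0553 and −0.14. Signs turned for Ube2v2 with Fc-JAG1 (−0.77 by edgeR and −0.65 by DESeq2 when washout 1 and 3 and the replicate block were left out), for Ube2c with compE (−0.0070 by voom, −0.0696 by edgeR with the same omissions, and −0.46 to −0.43 without compE 1), for Ube2j1 with compE (−1.81 by edgeR and −1.84 by DESeq2 without compE 1, −1.68 by edgeR without washout 1), and between Fc-JAG1 and compE for Ube2e2 (1.74 to 2.83 without compE 1), Ube2j1 (7.45 and 6.55 without compE 1, 2.37 and 0.19 without Fc-JAG1 1) and Ube2u (0.10 to 0.36 without compE 1). By the span of a gene, or by its bases free of other genes, 5 of the first 10 members by level were the same. The cause of each shift was not tested. With 2 or 3 libraries a condition and a common dispersion of 2.42, a call missed says little about a member.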
